A study of Rattus norvegicus with 24 samples.

Results

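The comparison described here set spinal cord taken 14 days after a clip injury against spinal cord of sham-operated rats, across every gene that the array could name. The arrays were picked by their titles alone, 4 injured at 2 weeks and 4 sham, and they are 8 of the 24 arrays of the series. The 4 day 14 cords came from female Wistar rats in which an aneurysm clip had compressed the exposed thoracic cord at T7, and the 4 sham cords from female Wistar rats given the laminectomy without the clip. Both groups therefore share strain, sex and the opening of the vertebrae, and the tissue was the cord at the epicenter level. Each array held 1 rat, no age was stated, and the sources used here do not say on which day the sham rats were sampled, so time since surgery and injury cannot be told apart in this contrast. Arrays of other rats at day 7 and day 56 after the same injury (4 each) served to place day 14 in time. All 24 arrays also shared 1 estimate of the spread in the fit. The standard errors and adjusted p-values below therefore draw on every group of the series.

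At 2 weeks a compressed cord is in its subacute stage. Blood-borne monocytes have entered and become macrophages, microglia have multiplied, and both clear myelin and cell debris. Around that core astrocytes enlarge and form a border, while perivascular cells and fibroblasts lay down collagen in the core. Neurons in the grey matter of the epicenter and the axons that crossed it have degenerated to varying degrees, and little regrowth follows.

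RNA was hybridised to Affymetrix rat genome arrays, and every value below is a log2 expression value after GCRMA, an algorithm that subtracts background by probe sequence and scales arrays to each other. A difference of 1 is a doubling of the signal, and a positive difference means higher at day 14. Values of single rats are always given in the order of replicates 1 to 4. The 27 control probe sets for Bacillus transcripts, which have no target in rat cord, averaged 2.79 to 2.91 on the day 14 arrays and 2.71 to 2.88 on the sham arrays, and the highest single control value on these 8 arrays was 3.498. That value is called the control level below, and a gene at or under it has no measurable signal. Where a gene is said to have no signal in both groups, both means lay at or under it. Sham tissue carried the defining transcripts of cord, with Mbp and Gfap near the top of the array's range and Chat, of motor neurons, above the control level on every array. Where all 4 arrays of a group lay at or under it, the fold is given as a lower bound, from the brighter group's mean down to the control level. Correlations between arrays of a group were 0.983 to 0.9955 at day 14 and 0.992 to 0.995 in sham. The methods describe GCRMA as run time point by time point, and whether day 14 and sham arrays shared a run was not given in the sources used here.

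Day 14 replicate 3 stood apart from the other 3 injured rats. Over the 771 genes called with a change of at least 2, the median distance from the sham mean was 2.52, 2.46, 3.68 and 2.34 in the 4 day 14 arrays, and replicate 3 was the array nearest to sham in only 1.7% of these genes, against 17.8%, 35.1% and 45.4% for replicates 1, 2 and 4. In 110 genes it lay at least 2 below the lowest of the other 3, and 104 of those were called lower than sham. In 63 genes it lay at least 2 above the highest of the other 3. Leaving it out kept 3594 calls, removed 964, added 29 and turned none round. Wherever a gene is given below as higher or lower than sham and leaving out 1 array ended that call, this is said beside it.

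Of 14218 genes, 4558 differed between day 14 and sham cord at an adjusted p under 0.05 in limma, which is 32.1% of all genes. They split into 2243 that rose (15.8%) and 2315 that fell (16.3%). Among these called genes 125 had both means at or under the control level, and so no measurable signal in either group. The rises were the larger changes. At least 1 unit separated 1048 risen genes (7.37%) and 983 fallen genes (6.91%), at least 3 units 203 and 102, at least 4 units 69 and 14, and at least 5 units 35 and 0. Small changes were common too: 900 of the called genes (19.7%) moved by under 0.5. The median over all genes was 0.034. In 5158 genes (36.3%) the 4 day 14 values and the 4 sham values did not overlap, 2801 with day 14 above (19.7%) and 2357 with day 14 below (16.6%).

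**Figure D1:**
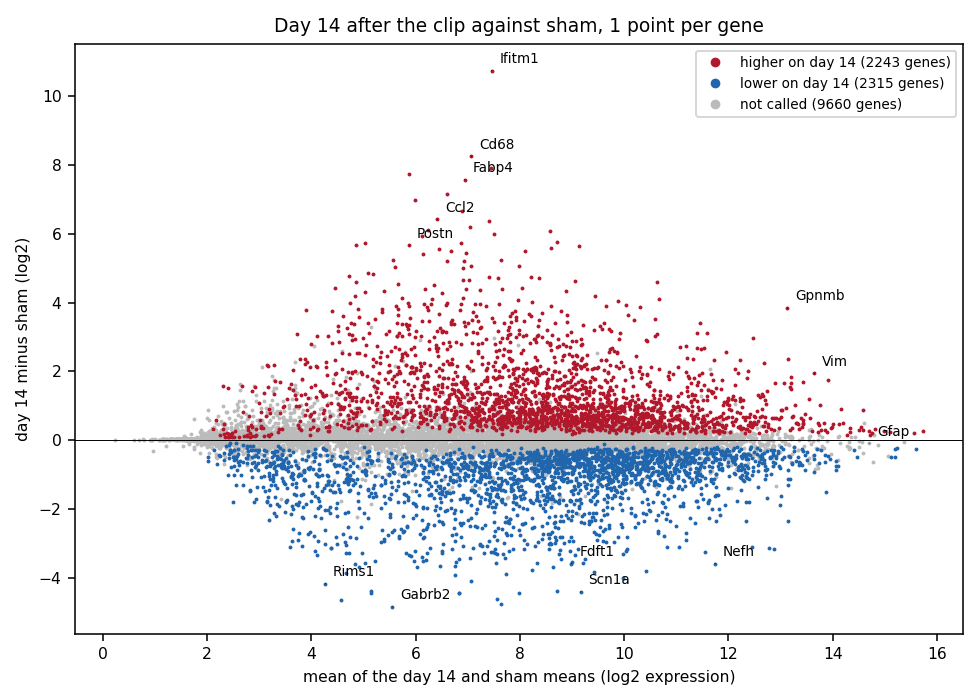
Difference between the day 14 and the sham mean (log2, vertical axis) against the average of both means (log2 expression, horizontal axis), 1 point per gene. Red points are the 2243 genes called higher at day 14, blue points the 2315 called lower and grey points the rest; rises reach above 10 units, whereas no measured fall reaches 5.

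Among the 15 largest rises without overlap most belonged to phagocytes or the interferon response and come with their groups below. Outside the lists stood Ms4a6bl1, of the MS4A family of membrane proteins, which read 10.39, 9.62, 10.91 and 9.96 in the day 14 cords, against 2.26, 3.31, 3.14 and 5.55 in the sham cords. Every injured rat was far above every sham rat, with 4.07 between the nearest (log2 difference 6.65 ± 0.53 (SE), adjusted p = 5.1e-08). Lilrb4, an inhibitory receptor of myeloid cells, reached 10.13, 9.07, 11.55 and 9.996 at day 14, against 3.14, 2.77, 3.54 and 2.65 in sham. Arl11, a small GTPase-like protein, reached 10.33, 9.74, 10.67 and 9.80, against 1.83, 5.91, 2.65 and 5.39 in sham (log2 difference 6.19 ± 0.70 (SE), adjusted p = 2.5e-06). Apobec1, the RNA-editing deaminase, reached 10.84, 9.94, 11.08 and 10.53, against 2.42, 5.32, 3.44 and 5.75 in sham. In none of these did the groups come near each other. Among the 15 largest falls were several well-known neuronal genes. Pvalb, parvalbumin, the calcium buffer of fast-spiking neurons, read 7.46, 6.60, 3.84 and 8.13 in the day 14 cords, against 11.25, 10.60, 11.05 and 10.73 in the sham cords. Replicate 3 was down to near the control level, and the others stood well below sham (log2 difference -4.401 ± 0.99 (SE), adjusted p = 0.002). Lynx1, which modulates nicotinic receptors, fell by 4.46, and Slc32a1, which loads GABA and glycine into vesicles, by 4.46. Rgs7bp, which anchors regulators of G-protein signalling, fell by 4.09 and Hecw1, a ubiquitin ligase, by 4.63. Ankrd34b fell by 4.78, while Creg2 and Hhatl were at least 10.6-fold and 14.3-fold lower, with no injured rat above the control level.

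The genes were then read in lists by cell type or function, each list set against the 15.8% of all genes that rose, the 16.3% that fell and the median of 0.034. Phagocytes come first. Of 17 measured genes of monocytes and macrophages 10 rose and none fell, with a median difference over the list of 2.58. Cd68, which encodes a glycoprotein of phagocyte endosomes, read 11.35, 10.42, 12.18 and 10.83 in the day 14 cords, against 1.43, 3.11, 2.05 and 5.18 in the sham cords. The nearest injured and sham rats were 5.24 apart, and the sham rats themselves spanned 3.75 (log2 difference 8.26 ± 0.64 (SE), adjusted p = 3.5e-08). Folr2, a folate receptor of tissue macrophages, read 9.03, 8.61, 10.86 and 9.38 in the day 14 cords, against 2.63, 2.61, 2.16 and 2.58 in the sham cords. No sham array exceeded the control level, and the increase was at least 62.6-fold (log2 difference 6.97 ± 0.62 (SE), adjusted p = 2.0e-07). Cd14, the lipopolysaccharide co-receptor, rose by 6.11, Mrc1, the mannose receptor, by 5.08, and Ptprc, the pan-leukocyte phosphatase CD45, by 3.24. Adgre1, a surface receptor of macrophages and microglia, read 9.63, 9.73, 9.64 and 9.61 in the day 14 cords, against 5.05, 7.61, 5.69 and 7.998 in the sham cords, with injured rats within 0.12 of each other and sham replicates 2 and 4 higher than 1 and 3 (log2 difference 3.07 ± 0.48 (SE), adjusted p = 6.4e-05). The members that did not pass were F13a1, a transglutaminase of resident macrophages, with a difference of 2.58, Arg1, arginase, with -0.50, Ccr1 with 0.27, and Ccr2, Cd163, Ms4a7 and Csf2rb, which had no signal in either group. Ccr2 is the receptor of inflammatory monocytes and Cd163 the hemoglobin scavenger receptor. In whole tissue more cells of a type and more RNA per cell cannot be told apart, nor can fewer cells and less RNA per cell wherever genes fell.

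Microglia were read with separate lists. Of 10 genes of resting microglia 6 rose (median 1.13). Csf1r, the receptor that keeps microglia alive, read 12.19, 12.07, 11.89 and 11.94 in the day 14 cords, against 9.93, 11.05, 10.58 and 11.25 in the sham cords. The groups did not overlap, and the sham rats varied far more than the injured ones (log2 difference 1.32 ± 0.21 (SE), adjusted p = 7.0e-05). P2ry12, the purine receptor of surveying microglia, rose by 0.99, and Cx3cr1, the fractalkine receptor, by 1.26. Tmem119 (0.22) and Sall1 (0.26), a membrane protein and a transcription factor that in the brain mark microglia, did not pass. The list of the damage-associated state went further: 18 of 20 rose, median 2.07. Clec7a, the beta-glucan receptor dectin-1, read 12.21, 11.30, 12.71 and 11.57 in the day 14 cords, against 3.92, 7.26, 5.83 and 8.24 in the sham cords. All injured rats were above all sham rats, and sham replicate 1 was lowest (log2 difference 5.63 ± 0.62 (SE), adjusted p = 2.1e-06). Lpl, lipoprotein lipase, rose by 5.20, Trem2, the lipid-sensing receptor, by 3.34, Axl, a receptor for apoptotic cells, by 3.11, Igf1, a growth factor, by 2.64, and Spp1, osteopontin, by 2.08. Csf1, a ligand of Csf1r, was level (-0.00), and Cst7 had no signal in either group.

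**Figure D2:**
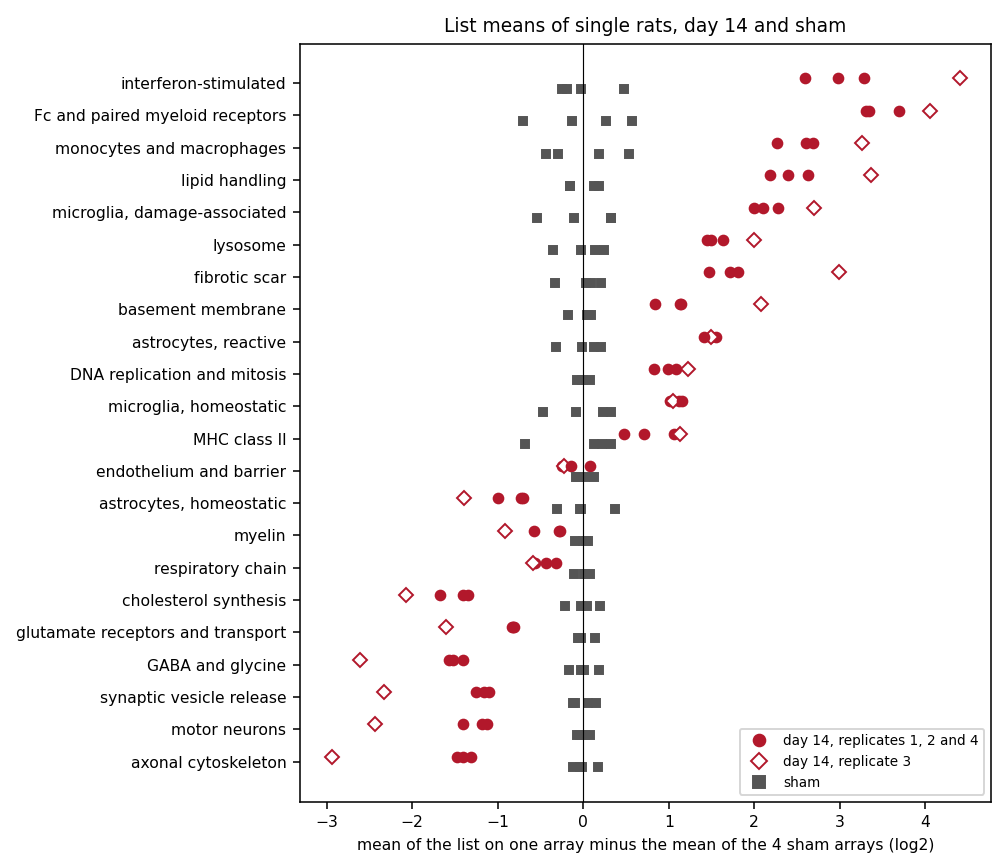
Mean log2 expression of each gene list on each array, minus the mean of the 4 sham arrays for that list. Red circles are day 14 replicates 1, 2 and 4, open diamonds day 14 replicate 3 and grey squares the sham rats; replicate 3 lies farthest from sham in most lists, among them the interferon-stimulated, fibrotic scar and axonal cytoskeleton lists, and close to the other injured rats in the reactive astrocyte and endothelial lists.

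Receptors that carry or pass on immune signals in myeloid cells rose almost as a whole: 15 of 16, median 3.09. Cd300c2, a member of the CD300 family, read 10.98, 10.59, 12.83 and 11.25 in the day 14 cords, against 3.52, 2.89, 3.68 and 3.86 in the sham cords. Replicate 3 was highest, and the nearest injured and sham rats were 6.72 apart (log2 difference 7.92 ± 1.15 (SE), adjusted p = 3.4e-05). Fcgr3a, a receptor for the constant part of antibodies, rose by 3.57, Fcgr2b, its inhibitory relative, by 2.43, and the shared signalling adaptors Tyrobp and Fcer1g by 2.07 and 1.96. Siglec5 did not pass (1.82). All 5 measured subunits of the phagocyte oxidase rose, the enzyme that makes superoxide. Its catalytic subunit Cybb read 10.25, 10.49, 11.18 and 10.09 in the day 14 cords, against 3.51, 4.48, 4.53 and 5.53 in the sham cords, with 4.55 between the nearest rats (log2 difference 5.99 ± 0.62 (SE), adjusted p = 1.0e-06). Ncf4, a cytosolic subunit, rose by 1.48, a call lost without day 14 replicate 3 (1.38, adjusted p = 0.053) and without sham replicate 1 (1.35, adjusted p = 0.051).

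Complement followed the same direction, with 11 of 17 genes higher, 1 lower and a median of 2.53. The 3 chains of C1q, which starts the classical pathway, all rose: C1qa by 2.56, C1qb by 3.13 and C1qc by 4.10. C1qb read 13.24, 12.97, 13.38 and 13.05 in the day 14 cords, against 9.66, 10.37, 9.70 and 10.40 in the sham cords, and both groups were tight (log2 difference 3.13 ± 0.21 (SE), adjusted p = 6.3e-09). Cfd, factor D of the alternative pathway, stayed under the control level in all sham rats and was at least 9.08-fold higher at day 14. C3ar1, the receptor for the fragment C3a, rose by 3.65, and C5ar1, the receptor for C5a, was at least 5.09-fold above a sham level without signal. The proteases of the cascade C1r, C1s and Masp1 rose by 2.55, 1.98 and 2.53. C3 itself, the central component, did not pass: it read 11.46, 11.86, 9.38 and 11.27 in the day 14 cords, against 10.33, 11.22, 11.37 and 11.19 in the sham cords, a difference of -0.03. Serping1, which inhibits C1, rose by 2.69, whereas Cd59b, which blocks the final pore, fell by 0.63, a call lost in 7 of the 8 fits that left out 1 array each.

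The interferon list held the largest single change. 28 of its 31 measured genes rose, none fell, and the median difference was 3.14. These genes are switched on when interferon receptors activate STAT and IRF factors, which bind response elements near the start of transcription. Ifitm1, a membrane protein that keeps viruses from entering cells, read 13.03, 11.97, 13.76 and 12.56 in the day 14 cords, against 1.75, 2.54, 1.99 and 2.05 in the sham cords. It was below the control level in every sham rat and bright in every injured one, at least 646-fold higher (log2 difference 10.75 ± 0.39 (SE), adjusted p = 7.6e-13). Mx1, a GTPase with antiviral action, read 11.93, 11.28, 12.68 and 10.55 in the day 14 cords, against 4.78, 5.04, 4.76 and 7.57 in the sham cords, with sham replicate 4 above the other sham rats and still below all injured rats (log2 difference 6.07 ± 0.69 (SE), adjusted p = 2.5e-06). Irf7, the transcription factor that amplifies the response, read 11.09, 10.17, 11.72 and 9.94 in the day 14 cords, against 5.64, 5.80, 5.76 and 6.88 in the sham cords (log2 difference 4.71 ± 0.58 (SE), adjusted p = 6.4e-06). Both groups were clearly separated. Cxcl10, a chemokine for activated T cells, varied most among the injured rats, 7.23, 7.92, 10.85 and 4.75, against 1.99, 1.78, 1.87 and 2.41 in sham, where it was under the control level. Its lowest injured rat, replicate 4, was still above every sham rat, and the increase was at least 18.2-fold (log2 difference 5.67 ± 1.15 (SE), adjusted p = 8.0e-04). Rsad2, Isg15, Ifit3, Usp18, Oas1a, Igtp, Gbp2 and Bst2 rose by 5.76, 5.08, 4.67, 3.90, 3.46, 3.44, 3.14 and 3.10. Ifih1 and Ifit1 had both means under the control level, and Ifi44l did not pass at 2.28. On the list mean replicate 3 was highest and replicate 4 lowest of the injured rats, 10.39 and 8.58, and sham replicate 4 was highest of the sham rats at 6.46.

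Since these genes moved together, their promoters were read for the interferon-stimulated response element. RefSeq windows of 250 bases before to 50 after the start (build GRCr8) were on hand for 22 of the 31 genes, and 17 of them (77.3%) held its core, GAAA, any 2 bases and GAAA again, on either strand, against 1034 of 27457 promoters of all genes (3.77%). The match is a description of the sequence and says nothing of binding in these cords. 7 stretches are shown so that the element can be set beside the values above, each 5′ to 3′ in the direction of transcription, with the match in capitals (on the opposite strand it reads TTTC, any 2 bases, TTTC, and 2 overlapping matches give a longer run of capitals).
Irf7, chr1:205800058-205800117, minus strand: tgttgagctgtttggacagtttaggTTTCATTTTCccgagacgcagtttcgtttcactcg
Rsad2, chr6:48788233-48788292, minus strand: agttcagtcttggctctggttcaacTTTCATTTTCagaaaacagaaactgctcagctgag
Bst2, chr16:18255058-18255123, minus strand: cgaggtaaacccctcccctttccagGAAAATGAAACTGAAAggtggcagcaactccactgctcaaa
Ifit3, chr1:241527257-241527316, plus strand: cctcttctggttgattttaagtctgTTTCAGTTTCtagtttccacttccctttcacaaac
Oas1a, chr12:41330400-41330465, plus strand: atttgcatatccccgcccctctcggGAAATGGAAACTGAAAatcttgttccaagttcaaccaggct
Igtp, chr10:42874919-42874978, plus strand: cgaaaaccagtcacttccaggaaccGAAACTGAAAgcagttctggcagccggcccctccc
Cxcl10, chr14:15988816-15988857, plus strand: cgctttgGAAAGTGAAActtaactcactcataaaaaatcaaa
The stretch of Ifit3 ends at -10 from the start of transcription and that of Oas1a at -1, while that of Cxcl10 lies at the far end of its window, at -250 to -209 from the start. The same search found the PU.1 core GAGGAAGT in 1 of 13 macrophage promoters (7.69%, F13a1), in none of the 7 promoters of resting and none of the 12 of damage-associated microglia, and in 2.44% of all promoters. The sterol element TCACNCCAC was in none of 17 cholesterol synthesis promoters and in 1.13% of all.

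Machinery that loads MHC class I with peptides rose too, 10 of 15 genes (median 1.45). Psmb8 and Psmb9, subunits of the immunoproteasome, rose by 3.997 and 2.84, Psme1, its activator, by 1.45, and B2m, the light chain, by 0.89. Tap1, which pumps peptides into the endoplasmic reticulum, rose by 1.28, a call lost when only the day 14 and sham arrays were fitted (adjusted p = 0.057) and without day 14 replicate 3 (0.85, adjusted p = 0.10). Of 13 genes of MHC class II presentation 5 rose, with a median of 0.28. Leaving out 1 array moved that median between 0.04 (without day 14 replicate 1) and 0.58 (without day 14 replicate 2), and it was 0.07 without sham replicate 1. The 5 were Ifi30, a thiol reductase of antigen processing (3.12), the peptide exchange chains RT1-DMb (2.33) and RT1-DMa (2.15), the costimulator Cd86 (2.21) and the protease Ctss (0.64). Cd74, the invariant chain, read 10.55, 9.45, 9.89 and 9.35 in the day 14 cords, against 8.64, 10.61, 10.39 and 10.38 in the sham cords. Sham replicate 1 was lowest of all 8 rats and sham replicate 2 the highest, for a difference of -0.20. The peptide-binding chains RT1-Ba, RT1-Bb, RT1-Da and RT1-Db1 did not pass either, with differences of -0.16, -0.05, 0.28 and -0.03.

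Markers of lymphocytes were mostly without signal. Of 22 T and NK cell genes 16 had both means at or under the control level and 2 rose. Cd8a, a chain of the CD8 co-receptor, read 7.48, 6.39, 8.80 and 7.70 in the day 14 cords, against 2.81, 2.77, 2.77 and 2.72 in the sham cords. It was clearly present in all injured rats and in no sham rat, at least 17.1-fold higher (log2 difference 4.83 ± 0.70 (SE), adjusted p = 3.6e-05). Which cells carried Cd8a was not tested. Cd3e, a chain of the T cell receptor complex, read 6.02, 5.31, 5.54 and 5.26 in the day 14 cords, against 5.38, 4.98, 5.29 and 5.17 in the sham cords and did not pass (0.33). Cd3g, Cd3d, Cd247 and Cd2, further parts of that complex and its surroundings, lay under the control level in both groups, and Cd8b, the partner chain, had a difference of 1.75 that did not pass. Cd4, which macrophages also carry in rats, rose by 1.71, reading 6.55, 7.43, 5.31 and 7.27 in the day 14 cords, against 4.22, 5.78, 4.38 and 5.34 in the sham cords, with injured replicate 3 inside the sham range, a call lost when only the day 14 and sham arrays were fitted (adjusted p = 0.065). Among 15 B and plasma cell genes, Blnk, a signalling adaptor that macrophages share, rose by 2.55. Btk and Prdm1, which macrophages express as well, passed but were at least 1.9-fold and 1.36-fold above a sham level without signal, and Btk was called in 1 of the 8 fits that left out 1 array, Prdm1 in 6 (log2 difference 0.55 without day 14 replicate 1). Cd79b, Ms4a1, Jchain and Tnfrsf17, which define the lineage, were under the control level in both groups. Cd22 (0.38) and Cxcr5 (0.13), B cell receptors, had signal in all 8 rats and did not pass, Cxcr5 being bright in both groups, and which transcript its probe set detects was not tested. Neutrophil genes gave 2 of 12 higher, against 15.8% of all genes. Csf3r, the G-CSF receptor, rose by 2.11, and Slpi, a protease inhibitor, was at least 3.8-fold above a sham level without signal. The call of Slpi was lost when only the day 14 and sham arrays were fitted (adjusted p = 0.055). It was also lost without day 14 replicate 1 (1.95, adjusted p = 0.073) and without day 14 replicate 3 (1.73, adjusted p = 0.1). Camp, Np4, Fcnb and Mmp9 had no signal, and S100a8 and S100a9 had differences of 0.12 and 1.13 that did not pass.

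Soluble signals and their receptors were read next. 9 of 28 chemokines rose (15.8% of all genes did), led by Ccl2, which draws monocytes. It read 10.11, 9.06, 10.29 and 9.06 in the day 14 cords, against 2.99, 3.57, 2.99 and 3.28 in the sham cords, with replicates 1 and 3 above 2 and 4 and 5.49 between the nearest rats of the groups (log2 difference 6.42 ± 0.49 (SE), adjusted p = 3.5e-08). Ccl6 rose by 5.43, Cxcl12, the CXCR4 ligand, by 4.04, Cxcl16 by 3.64 and Pf4, platelet factor 4, by 2.78, and Ccl4 was at least 4.36-fold above a sham level without signal. For Cxcl16 sham replicate 1 read 3.51 and the other sham rats 8.17 to 8.45, and without that rat the difference was 2.44. Ccl9 split the injured rats, 4.37, 3.55, 10.38 and 8.92, against 3.56, 3.49, 3.51 and 3.45 in sham, and did not pass (3.30). Of 26 cytokine, receptor and STAT3 genes 9 rose, all of them receptors, transducers or maturation enzymes apart from Il18, a cytokine of the interleukin-1 family (1.75). Casp1, which matures it, rose by 3.33, Tnfrsf1a, the TNF receptor, by 2.21, Il6r by 1.78 and Stat3 by 1.36. The cytokines Il1a, Il1b, Il6, Il10 and Tnf lay under the control level in both groups. Pattern receptors rose in 8 of 13 cases (median 2.36), among them Tlr7 (3.17), Tlr2 (2.65), Tlr4 (2.45), its partner Ly96 (3.43) and Lbp, which carries lipopolysaccharide and was at least 21.1-fold above a sham level without signal. Adhesion molecules gave 8 of 13, with Icam1 up by 3.50, Itgb2 by 3.32 and Cd44, the hyaluronan receptor, by 2.17, whereas the selectins Sele and Selp had no signal.

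**Figure D3:**
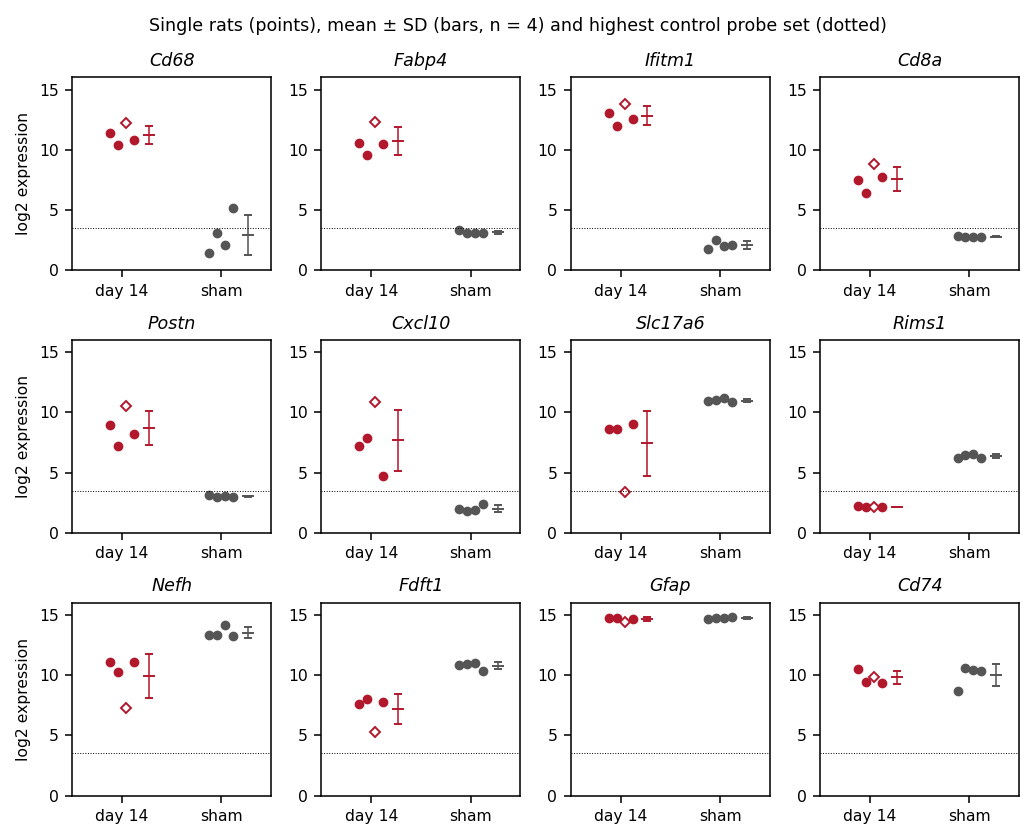
Log2 expression of 12 genes in single rats, day 14 left and sham right in each panel, with mean ± SD over 4 rats; open diamonds are day 14 replicate 3 and the dotted line is the control level of 3.498. Cd68, Fabp4, Ifitm1, Cd8a, Postn and Cxcl10 lie far above sham, Slc17a6, Rims1, Nefh and Fdft1 below it, and Gfap and Cd74 overlap with it.

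Genes for taking up, storing and exporting lipid rose in 17 of 18 cases, median 2.17, and those for making cholesterol fell in 18 of 21, median -1.68. Fabp4, a fatty acid binding protein of macrophages and fat cells, read 10.57, 9.56, 12.28 and 10.51 in the day 14 cords, against 3.33, 3.07, 3.10 and 3.12 in the sham cords. It was below the control level in sham and at least 150.0-fold higher (log2 difference 7.58 ± 0.68 (SE), adjusted p = 2.3e-07). Cd36, a scavenger receptor for oxidised lipoprotein, read 8.42, 6.03, 10.19 and 7.97 in the day 14 cords, against 4.27, 4.25, 4.44 and 4.12 in the sham cords, with a spread of 4.16 among injured rats and replicate 2 lowest (log2 difference 3.88 ± 0.83 (SE), adjusted p = 0.0013). Soat1, which esterifies cholesterol for storage, rose by 3.21, Plin2, which coats lipid droplets, by 2.13, Abca1 and Abcg1, the export pumps, by 1.70 and 1.66, Nr1h3, the liver X receptor that drives them, by 2.20, and Ch25h, which makes 25-hydroxycholesterol, by 2.78. Apoe, the main lipid carrier of the cord, rose by 0.87. Pparg was under the control level in both groups.

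On the synthesis side Fdft1, squalene synthase, read 7.61, 8.06, 5.29 and 7.80 in the day 14 cords, against 10.83, 10.91, 11.04 and 10.38 in the sham cords. Replicate 3 was lowest, and the highest injured rat was 2.32 under the lowest sham rat (log2 difference -3.599 ± 0.54 (SE), adjusted p = 5.0e-05). Sqle, the epoxidase that follows, fell by 2.11, Idi1 by 2.16, Msmo1 by 2.02, Cyp51 by 1.68, Lss by 1.59 and Dhcr7, the last step, by 1.36. Srebf2, the transcription factor of the pathway, fell by 1.33 and Insig1, its feedback partner, by 1.95. Sc5d (-1.34), Lbr (0.27) and Ebp (-0.21) did not pass. Msmo1 itself still read 10.68, 11.18, 10.27 and 11.11 at day 14, far above the control level, so the fall did not remove its signal.

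Lysosomal genes rose in 25 of 31 cases, with 1 lower and a median of 1.52. Plbd1, a lysosomal amidase, read 9.90, 8.49, 10.99 and 9.55 in the day 14 cords, against 1.87, 1.86, 1.89 and 2.38 in the sham cords, at least 75.3-fold higher (log2 difference 7.73 ± 0.57 (SE), adjusted p = 2.4e-08). Among cathepsins, the lysosomal proteases, Ctsc rose by 3.69, Ctsz by 2.36, Ctsb by 1.74, Ctsl by 1.66 and Ctsd by 1.49. Gpnmb, a membrane glycoprotein of phagocytes, read 15.05, 14.86, 15.33 and 14.96 in the day 14 cords, against 8.80, 12.57, 10.91 and 12.57 in the sham cords, and sham replicate 1 was lowest (log2 difference 3.84 ± 0.53 (SE), adjusted p = 2.0e-05). Its day 14 values lay near the top of the array's range, where differences can be compressed. Acp5 and Nfatc1, best known from osteoclasts, rose by 3.51 and 2.38, while Calcr and Itgb3, further osteoclast markers, had no signal. The member that fell was Atp6v1a, a chain of the proton pump, by 0.79. Of 15 iron and heme genes 3 rose and 3 fell, against 15.8% and 16.3% of all genes. Hmox1, which degrades heme, rose by 5.24 (4.44 without sham replicate 1, the lowest), and Cp, the ferroxidase ceruloplasmin, by 1.74, while Tfrc, the transferrin receptor, fell by 1.23.

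The matrix of the fibrotic core rose in 23 of 33 genes, median 2.00, and none fell, with 16 higher without day 14 replicate 3. The mean of this list was 9.52 in replicate 3, against 7.99 to 8.33 in the other injured rats, and that of the meninges list was 8.11, against 6.54 to 6.87. The part of meningeal tissue in these values was not tested. Col1a1, the main chain of fibrillar collagen, read 12.03, 11.90, 13.77 and 11.72 in the day 14 cords, against 7.74, 9.33, 8.89 and 9.32 in the sham cords. Replicate 3 stood above the other injured rats, and the groups did not overlap (log2 difference 3.53 ± 0.75 (SE), adjusted p = 0.0011). Postn, periostin, which helps to cross-link collagen, was at least 37-fold above a sham level without signal. Col3a1 rose by 3.40, a call lost without day 14 replicate 3 (2.95, adjusted p = 0.079) and without sham replicate 1 (3.07, adjusted p = 0.064), although all 4 injured rats (12.95, 12.62, 14.50 and 12.56) were above all sham rats (8.76, 10.11, 10.004 and 10.16). Col6a3 rose by 4.401, the cross-linking enzymes Loxl2 and Lox by 3.97 and 2.596, Fn1, fibronectin, by 2.16, and Acta2, smooth muscle actin, by 0.92. Pdgfrb, the receptor of pericytes and scar-forming perivascular cells, had a difference of 1.07 and did not pass, and neither did Ccn2 (-0.55). Basement membrane genes gave 8 of 17, or 5 without either day 14 replicate 3 or sham replicate 3. Col4a1, which forms the sheet, rose by 3.06, Nid1, which links it, by 1.82, and Lamc1, a laminin chain, by 1.70. Lum, lumican, rose by 3.23, and Dcn, decorin, had a difference of 2.06 that did not pass.

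Proteoglycans and tenascins moved both ways, 6 up and 4 down of 23, against 15.8% and 16.3% of all genes. Tnc, tenascin C, read 9.66, 9.66, 10.35 and 9.30 in the day 14 cords, against 3.64, 5.95, 2.51 and 3.91 in the sham cords. Injured rats were within 1.05 of each other, sham rats spread over 3.44, and the nearest rats were 3.35 apart (log2 difference 5.74 ± 0.54 (SE), adjusted p = 4.0e-07). Ncan, neurocan, an inhibitor of axon growth, rose by 2.48, reading 6.58, 7.79, 3.84 and 6.88 in the day 14 cords, against 2.52, 3.82, 4.08 and 4.78 in the sham cords. Replicate 3 lay inside the sham range, and the call was lost when only the day 14 and sham arrays were fitted (adjusted p = 0.087), without day 14 replicate 2 (1.97, adjusted p = 0.071) and without sham replicate 1 (2.05, adjusted p = 0.068). Vcan, versican, rose by 1.33. Bcan, brevican, had a difference of 0.18, and Acan, aggrecan, had no signal. Of the 4 genes that fell, Hapln4 fell by 3.43, Hapln2 by 1.84 and Hapln1 by 0.45, all link proteins of perineuronal and perinodal matrix, and Cspg5, a membrane proteoglycan, fell by 1.18 and was called in 2 of the 8 fits that left out 1 array. Of 27 metalloproteinases and inhibitors 11 rose and 1 fell. Mmp12, macrophage elastase, was at least 48.5-fold above a sham level without signal, Mmp2, gelatinase A, rose by 5.23, its membrane activator Mmp14 by 2.11, and the inhibitor Timp1 by 3.09. Mmp9 and Mmp3 had no signal. Timp4 fell by 2.17. Tgfb1, which drives fibrosis, rose by 2.36 and its receptor Tgfbr1 by 1.74, as part of 9 genes up and 2 down of 31.

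Reactive astrocyte genes rose in 12 of 20 cases, median 1.36. Vim, vimentin, an intermediate filament of reactive glia and of many other cells, read 14.63, 14.63, 14.80 and 14.43 in the day 14 cords, against 11.99, 13.18, 12.53 and 13.02 in the sham cords. The injured rats were tight and the groups apart (log2 difference 1.94 ± 0.17 (SE), adjusted p = 1.9e-07). Nes, nestin, rose by 2.58, S1pr3, a sphingosine phosphate receptor, by 2.07, and Hspb1, a small heat shock protein, by 1.44. Gfap, the defining filament of astrocytes, read 14.74, 14.77, 14.38 and 14.70 in the day 14 cords, against 14.63, 14.74, 14.76 and 14.85 in the sham cords, near the top of the array's range in all 8 rats, and its difference of -0.09 did not pass. Serpina3n, Tgm1 and Aspg had no signal in either group. Genes of resting astrocytes gave 5 lower of 18, median -0.67. Kcnj10, the potassium channel Kir4.1, read 3.37, 3.17, 3.36 and 3.44 in the day 14 cords, against 6.34, 6.40, 7.29 and 4.53 in the sham cords, with no signal in any injured rat and sham replicate 4 the lowest of sham, at least 6.25-fold lower (log2 difference -2.81 ± 0.48 (SE), adjusted p = 1.7e-04). Slc1a2, the main glutamate transporter, fell by 1.95. Gjb6, connexin 30, fell by 2.19, a call kept in only 2 of the 8 fits with 1 array left out. The abundant genes Aqp4 (-0.39), Gja1 (-0.05), Glul (-0.02) and Slc1a3 (0.29) did not pass.

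Of 23 myelin genes 10 fell with a median of -0.34, or 6 with a median of -0.20 without day 14 replicate 3. Mbp, myelin basic protein, fell by 0.23, reading 15.16, 15.17, 15.03 and 15.14 in the day 14 cords, against 15.41, 15.25, 15.42 and 15.34 in the sham cords, a call lost after quantile normalization (-0.12, adjusted p = 0.28) and when the probe sets of a gene were averaged (-0.29, adjusted p = 0.056). All 8 values lay near the top of the array's range, where differences can be compressed, so the size of this fall is uncertain. Mog, on the outer face of the sheath, fell by 0.78, a call kept in only 2 of the 8 fits with 1 array left out, and Ermn, ermin, by 1.13, a call lost without day 14 replicate 3 (-0.90, adjusted p = 0.067). Mag (-0.30), Cnp (-0.27), Mal (-0.34) and Cldn11 (-0.07) did not pass. Oligodendrocyte precursor genes were nearly level, 2 up and 1 down of 16. Pdgfra had a difference of 0.91 and Olig1 of -0.62, and neither passed. Schwann cell genes, which belong to peripheral nerve, rose in 6 of 15 cases, or 3 without replicate 3. Egr2, the transcription factor of myelinating Schwann cells that macrophages also express, read 7.34, 7.34, 8.39 and 6.64 in the day 14 cords, against 4.24, 4.21, 3.57 and 4.18 in the sham cords, with no overlap (log2 difference 3.38 ± 0.47 (SE), adjusted p = 2.2e-05). Scn7a, a sodium channel relative of non-myelinating Schwann cells, rose by 2.32, and Pmp2, a peripheral myelin protein that astrocytes can also make, by 2.20. Prx, periaxin, had a difference of 0.53, Sox2 of 0.32, and neither passed, while Foxd3 and Gfra3 had no signal.

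**Figure D4:**
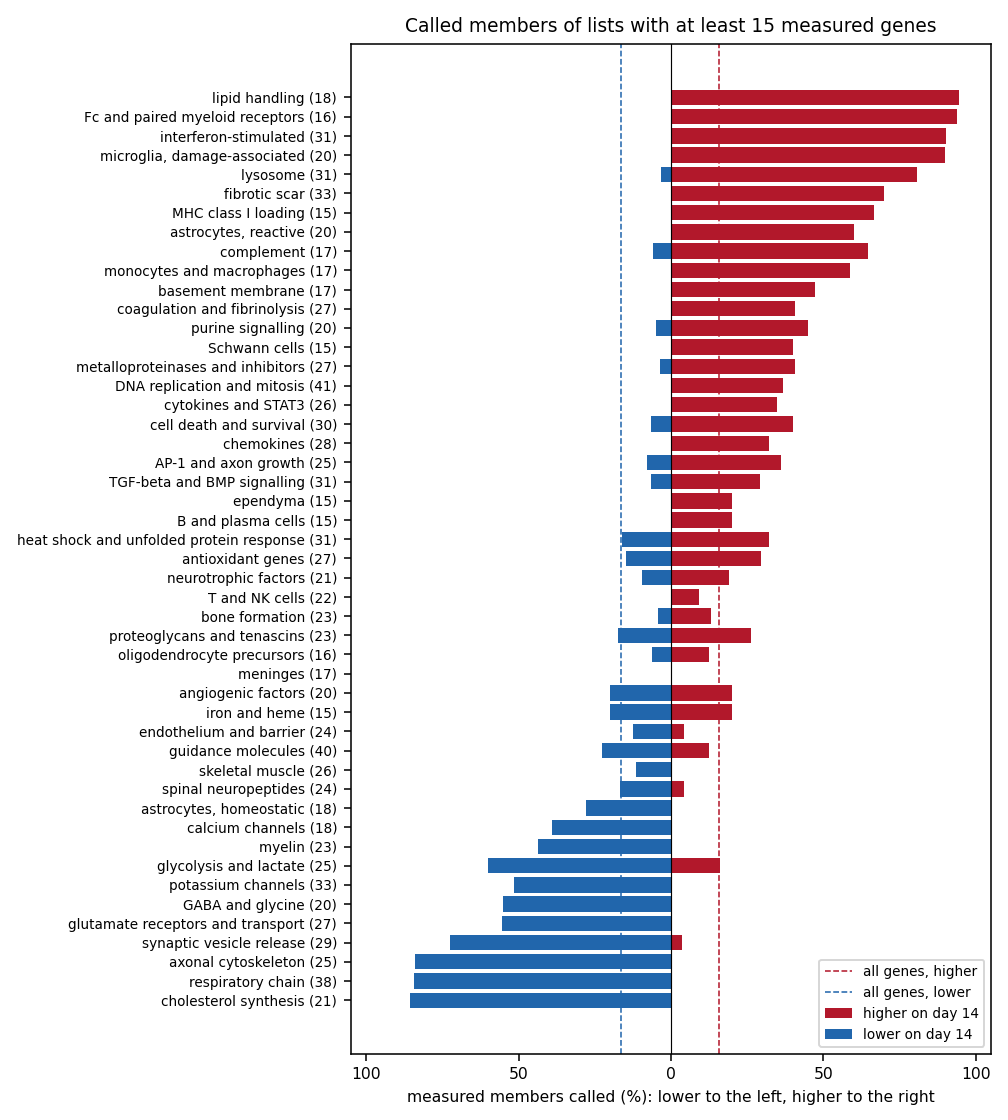
Share of measured members called higher (red, to the right) and lower (blue, to the left) at day 14 than in sham, for lists with at least 15 measured genes, number of genes in brackets. Dashed lines are the shares over all genes, 15.8% higher and 16.3% lower; lipid handling reaches furthest right and cholesterol synthesis furthest left.

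Neuronal transcripts fell broadly and most deeply in day 14 replicate 3. Of 25 genes of the axonal cytoskeleton and its motors 21 fell and none rose, median -1.62. Nefh, the heavy neurofilament chain of large axons, read 11.12, 10.28, 7.27 and 11.10 in the day 14 cords, against 13.36, 13.36, 14.20 and 13.23 in the sham cords. Replicate 3 was lowest, and without it the difference was -2.70 (log2 difference -3.59 ± 0.93 (SE), adjusted p = 0.0058 with all rats). Nefm, Nefl and Kif5a, the middle and light chains and a transport motor, fell by 3.14, 3.18 and 3.18, Stmn2 by 1.96 and Tubb3, neuronal tubulin, by 1.62. Gap43, a protein of growing axons, read 11.98, 11.72, 10.81 and 11.44 in the day 14 cords, against 11.12, 12.06, 11.55 and 11.26 in the sham cords and was level (-0.01). Genes of motor neurons fell in 7 of 14 cases (median -1.40), or 5 with a median of -0.78 without day 14 replicate 3. Chat, which makes acetylcholine, read 2.605, 2.55, 2.55 and 2.54 in the day 14 cords, against 4.91, 5.56, 5.80 and 4.94 in the sham cords, so that no injured rat exceeded the control level, at least 3.5-fold lower (log2 difference -2.74 ± 0.22 (SE), adjusted p = 5.1e-08). Slc5a7, the choline transporter, fell by 3.28, Nrg1, neuregulin, by 3.94, Chodl, a marker of fast motor neurons in mice, by 3.81, and Prph, peripherin, by 3.03, and the calls of Chodl and Prph were lost without replicate 3 (-2.77, adjusted p = 0.054 and -2.30, adjusted p = 0.063). Isl1 and Lhx4 had no signal in either group.

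Inhibitory transmission fell in 11 of 20 genes, median -1.23. Gabrb2, a subunit of the GABA-A receptor, read 3.31, 3.31, 2.61 and 3.26 in the day 14 cords, against 7.68, 8.18, 8.94 and 7.13 in the sham cords. Every injured rat was below the control level, at least 22.4-fold lower (log2 difference -4.86 ± 0.56 (SE), adjusted p = 3.3e-06). Gad1, which makes GABA, read 9.08, 8.43, 3.57 and 9.02 in the day 14 cords, against 10.50, 10.77, 11.02 and 10.52 in the sham cords, with replicate 3 far below the other injured rats and no overlap (log2 difference -3.18 ± 0.88 (SE), adjusted p = 0.0087). Without that rat the difference was -1.86 and still called, and the call was lost when only the day 14 and sham arrays were fitted (adjusted p = 0.10). Glra2, a glycine receptor chain, was at least 7.03-fold lower, and Slc12a5, the chloride transporter KCC2, fell by 3.23. The adult glycine receptor chain Glra1 had a difference of -1.11 and did not pass. Excitatory transmission fell in 15 of 27 genes, median -0.77. Slc17a6, the vesicular glutamate transporter VGLUT2, read 8.64, 8.65, 3.35 and 9.05 in the day 14 cords, against 10.96, 11.00, 11.16 and 10.83 in the sham cords. In replicate 3 it was below the control level, in the other injured rats well above it (log2 difference -3.57 ± 0.97 (SE), adjusted p = 0.0078). Without that rat the difference was -2.21 and still called, and the call was lost when only the day 14 and sham arrays were fitted (adjusted p = 0.08). Grin1, the obligatory NMDA receptor chain, read 3.05, 3.22, 2.97 and 3.02 in the day 14 cords, against 5.37, 6.11, 6.93 and 5.11 in the sham cords, with no injured rat above the control level, at least 5.2-fold lower (log2 difference -2.81 ± 0.34 (SE), adjusted p = 5.2e-06). Grin2a, Gria1 and Shank1 fell by 2.99, 2.04 and 2.57, while Slc17a7, the cortical transporter VGLUT1, and Grin2b had no signal in either group.

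Of 29 genes for vesicle release 21 fell and 1 rose, median -1.41. Rims1, a scaffold of the active zone, read 2.19, 2.18, 2.16 and 2.17 in the day 14 cords, against 6.22, 6.44, 6.54 and 6.25 in the sham cords. Both groups were tight and far apart, at least 7.27-fold lower (log2 difference -4.19 ± 0.12 (SE), adjusted p = 1.5e-14). Vamp1, the vesicle SNARE of the cord, fell by 3.11, Cplx1, complexin, by 3.24, and Syp, synaptophysin, by 2.25. The gene that rose was Syngr1, synaptogyrin, by 2.11. Voltage-gated channels gave 6 lower of 10 for sodium, 17 of 33 for potassium and 7 of 18 for calcium, with none higher. When dim probe sets were left out, the counts were 4 for sodium, 12 for potassium and 3 for calcium. Without day 14 replicate 3 they were 4, 14 and 7. Scn1a, the sodium channel of fast-spiking neurons, read 8.35, 7.84, 3.10 and 8.53 in the day 14 cords, against 11.28, 11.32, 11.58 and 11.32 in the sham cords, again with replicate 3 below the control level (log2 difference -4.42 ± 1.116 (SE), adjusted p = 0.0047). Kcnc1, the fast potassium channel Kv3.1, fell by 4.45, Kcnip4 by 4.44, Kcna1, which lies beside the node of Ranvier, by 1.72, and Cacna2d3 by 3.16. Scn8a, the channel of the node itself, counts among the sodium channels called lower although it lay under the control level in all 8 rats.

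Spinal neuropeptides gave 4 lower and 1 higher of 24, 7 lower without sham replicate 4. Of all genes 16.3% were lower and 15.8% higher. Trh, thyrotropin-releasing hormone, was the one that rose and read 8.48, 7.29, 8.47 and 8.04 in the day 14 cords, against 5.75, 5.29, 4.90 and 3.83 in the sham cords. All 4 injured rats, replicate 3 included, were above all sham rats (log2 difference 3.13 ± 0.36 (SE), adjusted p = 3.4e-06). Sst, somatostatin, fell by 1.79, and Cck, cholecystokinin, by 1.21. Penk, enkephalin, had a difference of -1.37, Gal, galanin, of -1.38, Tac1, substance P, of -1.32 and Calca, CGRP, of -1.10, and none of these passed, nor did Npy (0.07). Atf3, induced in injured neurons and in other stressed cells, rose by 5.50, Jun by 1.16, Sox4 by 1.91 and Klf6 by 1.75. Their list, of AP-1 transcription factors and genes linked to axon growth together, gave 9 up and 2 down of 25. Sprr1a and Sox11, genes of regenerating neurons, had no signal.

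Genes of energy metabolism fell by small amounts. Of 38 subunits of the respiratory chain 32 fell and none rose, with a median of -0.49. Ndufa8 of complex I read 11.99, 11.73, 11.43 and 12.05 in the day 14 cords, against 13.07, 12.86, 12.97 and 12.65 in the sham cords, the largest fall of the list, and the groups did not overlap (log2 difference -1.08 ± 0.12 (SE), adjusted p = 2.1e-06). Cox4i1 fell by 0.46 and Atp5f1b, the catalytic chain of ATP synthase, by 0.31. Of 25 genes of glycolysis, glycogen and lactate 15 fell, among them the neuronal isoforms Eno2 and Slc2a3, which fell by 1.92 and 1.24, and 4 rose: Hk2 by 2.78, Pygl by 2.79, Ldha by 1.08 and Pfkfb3 by 0.67. Atp1b1, a chain of the sodium pump, fell by 0.64, whereas Fxyd2 and Fxyd5, which modulate the pump, rose, Fxyd5 by 1.79 and Fxyd2 at least 3.69-fold from a sham level without signal.

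Genes of replication and mitosis rose in 15 of 41 cases and fell in none, with a median of 0.54, and 24 rose when only the day 14 and sham arrays were fitted. Mki67, present in all cycling cells, read 8.76, 7.64, 9.03 and 8.03 in the day 14 cords, against 5.23, 4.92, 5.08 and 4.68 in the sham cords, with no overlap (log2 difference 3.38 ± 0.44 (SE), adjusted p = 1.1e-05). Cdk1, the kinase that starts mitosis, rose by 3.90, Top2a by 2.20 and Mcm6, a replication helicase chain, by 2.84. Cell death and survival genes gave 12 up and 2 down of 30. Bcl2a1, a survival protein of myeloid cells, rose by 5.60 and Bcl2l11, the death-promoting BIM, by 4.14. Casp8 rose by 1.06, while Bcl2l2 and Bnip3 fell by 0.90 and 1.23. Gpx1, a glutathione peroxidase, rose by 1.82 and Sod2, the mitochondrial dismutase, fell by 0.74.

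Few vessel genes passed. Of 24 genes of endothelium and the blood-brain barrier 1 rose and 3 fell, against 15.8% and 16.3% of all genes. The fallen were 5 without day 14 replicate 2 and 1 without sham replicate 1. Cldn5, of the tight junction, read 10.19, 10.89, 10.19 and 10.73 in the day 14 cords, against 10.85, 10.87, 10.70 and 10.89 in the sham cords and did not pass (-0.32), nor did Pecam1 (0.34), Ocln (0.64) or Vwf (-0.38). Abcg2, an efflux pump, fell by 1.52, and Eng, endoglin, rose by 1.38. Vegfa, the main angiogenic factor, read 5.93, 6.78, 5.65 and 6.29 in the day 14 cords, against 8.14, 7.95, 8.45 and 8.14 in the sham cords and fell without overlap (log2 difference -2.01 ± 0.30 (SE), adjusted p = 4.1e-05), while Angptl4 rose by 4.11. Coagulation and fibrinolysis gave 11 of 27 higher, led by Plau, urokinase, at 4.14, with A2m, alpha-2-macroglobulin, at 2.34, and Fga, Fgb and Fgg, the fibrinogen chains, did not pass. Among purine genes Entpd2, an ecto-ATPase, rose by 2.14 and P2ry6, a receptor for UDP, by 2.02. P2rx4 rose by 2.61, with sham replicate 4 at 8.60 above the other sham rats, and P2rx7 had no signal.

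Markers of neighbouring tissue were checked because the dissected piece may hold them. Of 17 genes of the meninges none passed (median 0.50). Leaving out 1 array moved the median between 0.07 (without day 14 replicate 3) and 0.79 (without sham replicate 2), and 2 genes were called higher without day 14 replicate 4, without sham replicate 4 and in 3 of the other alternatives. Foxc1 and Slc6a13, both meningeal, had differences of 2.56 and 2.01. Skeletal muscle genes were mostly without signal, and among 26 of them 3 fell and none rose, or 1 fell without day 14 replicate 3. Their mean was 4.22 in day 14 replicate 4, against 3.16 to 3.28 in the other injured rats and 3.35 to 3.50 in sham. Acta1, skeletal actin, read 2.92, 2.81, 2.89 and 9.79 in the day 14 cords, against 4.75, 3.53, 2.96 and 2.83 in the sham cords, and Myl1, a myosin light chain, read 2.66, 2.63, 2.63 and 8.39 in the day 14 cords, against 2.62, 2.57, 2.57 and 2.52 in the sham cords. Both stood by far the highest in day 14 replicate 4 and did not pass, and the part of muscle RNA in other values of that rat was not tested. Sensory ganglion markers such as Scn10a, P2rx3 and Avil, and the adipocyte markers Adipoq, Plin1 and Lep, were under the control level in both groups. Of 12 adipocyte genes 4 nevertheless rose, namely Fabp4 and Cfd, given above, Dgat2, which makes triglyceride, by 2.02, and Cidea, whose means lay under the control level in both groups. The call of Cidea was lost without day 14 replicate 2 or 4 and without sham replicate 2, 3 or 4. It was also lost when only the day 14 and sham arrays were fitted (adjusted p = 0.17). Of red cell genes Hbb, beta globin, fell by 0.93, with overlap, a call kept in only 3 of the 8 fits that left out 1 array. Ciliated ependymal genes gave 3 of 15 higher, against 15.8% of all genes, and of these Pltp (2.40) and Rarres2 (1.06) are not particular to ependyma. Foxj1, the regulator of motile cilia, had a difference of 0.50 and did not pass.

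Day 14 was also set directly against its neighbours in time, with the same day 14 arrays in each contrast. Against day 7, 3981 genes passed (28.0%), 3102 higher (21.8%) and 879 lower (6.18%) at day 14, but most of these differences were small, with medians of 0.114 among the higher and -0.426 among the lower. Only 37 genes were higher by at least 1 (0.26%) and 79 lower by at least 1 (0.556%). The count moved widely between settings. It was 268 after quantile normalization of all arrays (205 higher and 63 lower), 1111 after centring each array on its median (341 and 770) and 248 when dim probe sets were left out (40 and 208). Without day 7 replicate 3 it was 3080 higher and 1553 lower. The control probe sets averaged 2.79 to 2.91 on day 14 arrays and 2.63 to 2.70 on day 7 arrays. Against day 56, 48 genes passed (0.338%), 21 higher (0.148%) and 27 lower (0.19%) at day 14, and with a change of at least 1 there were 10 higher (0.0703%) and 21 lower (0.148%). Fitting those 2 groups alone left 9, and leaving out 1 array left 21 without day 14 replicate 1, 24 without day 14 replicate 2 and 31, 29 and 28 without day 56 replicates 1, 2 and 3.

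**Figure D5:**
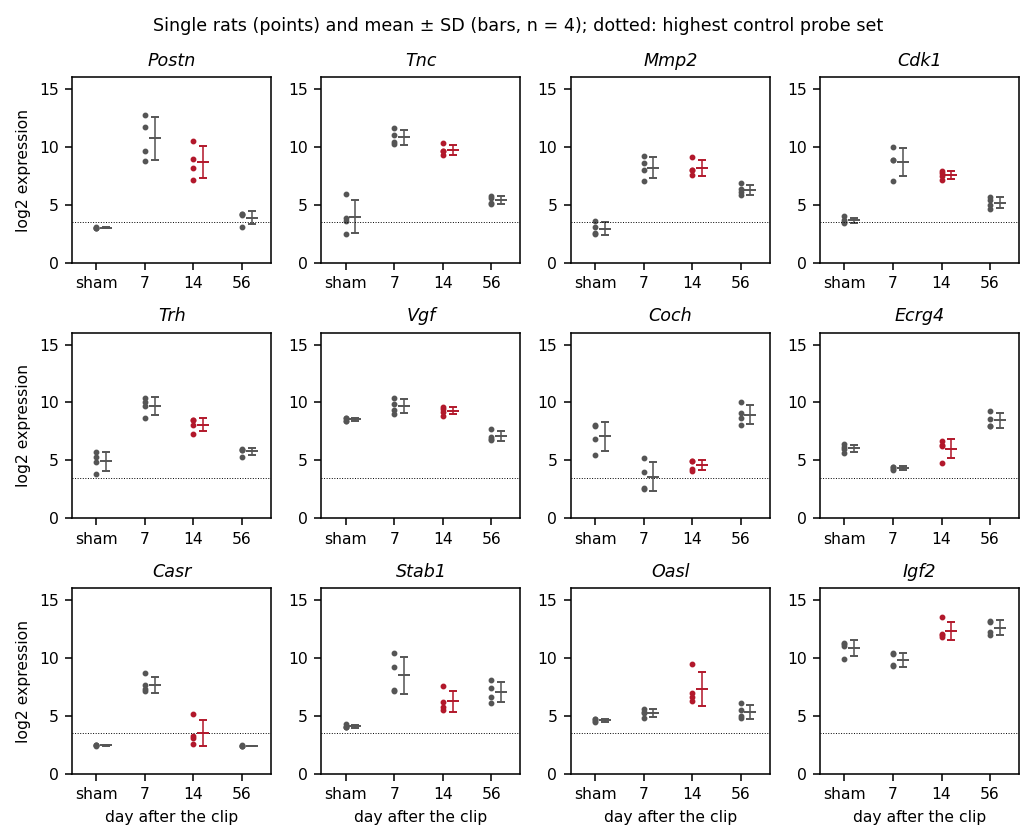
Log2 expression of 12 genes in single rats in sham cord and at days 7, 14 and 56 after the clip, with mean ± SD over 4 rats, day 14 in red and the control level dotted. Postn, Tnc, Cdk1 and Trh stand lower at day 56 than at day 14, Coch and Ecrg4 higher, and Casr is near the control level at every time but day 7.

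Among genes lower at day 14 than at day 7 were several of dividing cells. Mki67 differed by -1.28, Cdk1 by -1.14, and Racgap1, Shcbp1 and Cdkn3, which act in or after mitosis, by -2.23, -2.44 and -2.66. Pnlip, pancreatic lipase, Dpysl4, a protein of growing axons, and the pseudogene Brcc3-ps7 differed by -2.58, -2.36 and -4.84. Casr, the calcium-sensing receptor, read 2.61, 5.13, 3.10 and 3.29 at day 14, against 7.65, 7.18, 7.29 and 8.69 at day 7. At day 14 only replicate 2 was above the control level (log2 difference -4.17 ± 0.37 (SE), adjusted p = 1.2e-05). Stab1, a scavenger receptor of macrophages, differed by -2.25 and Postn by -2.03. Higher than at day 7 stood Igf2, an insulin-like growth factor, by 2.49 (its difference from sham, 1.49, did not pass), the interferon genes Ifit3 and Oasl by 2.23 and 2.07, and Glra1 by 1.75. Oasl read 6.95, 6.62, 9.48 and 6.28 at day 14, against 5.37, 5.28, 4.80 and 5.61 at day 7. Every injured rat at day 14 was above every rat at day 7, and replicate 3 was highest (log2 difference 2.07 ± 0.46 (SE), adjusted p = 0.011). Cxcl13, a chemokine for B cells, differed by 2.10, Cyp26b1, which breaks down retinoic acid, by 1.83, Lratd1 by 1.79, and Ppp1r1b, the phosphatase inhibitor DARPP-32, by 2.32, with 5.51, 8.06, 3.46 and 8.74 at day 14 and 3.50, 3.36, 5.63 and 4.002 at day 7, so that day 14 replicates 1 and 3 lay inside the day 7 range. Of 38 genes named in the text that were called against day 7, 27 lost the call after quantile normalization, 19 when only those 2 groups were fitted and 19 with at least 1 array left out. The call held in 3 of 8 such fits for Mki67, Postn and Ppp1r1b, in 2 for Cdk1 and Cxcl13, in 5 for Igf2, in 6 for Ifit3 and Cyp26b1 and in 7 for Glra1. Casr, Dpysl4, Pnlip, Racgap1 and Lratd1 were among the 9 that kept it in all of these fits.

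Among the genes higher at day 14 than at day 56, Postn read 8.93, 7.19, 10.53 and 8.19 at day 14, against 4.22, 3.06, 4.11 and 4.26 at day 56, so that all injured rats at day 14 were far above those at day 56 (log2 difference 4.80 ± 0.71 (SE), adjusted p = 0.0023). Tnc read 9.66, 9.66, 10.35 and 9.30 at day 14, against 5.64, 5.19, 5.10 and 5.81 at day 56 (log2 difference 4.31 ± 0.54 (SE), adjusted p = 7.2e-04), again without overlap. Cdk1 was higher by 2.39, Ccnb2, cyclin B2, by 2.31, Mmp2 by 1.90, Tnfrsf12a, the receptor of the cytokine TWEAK, by 2.34, and the peptides Trh and Vgf by 2.30 and 2.19. Vgf, a neuronal secretory protein, was higher than sham by 0.75, a call kept in 4 of the 8 fits with 1 array left out. Lower at day 14 than at day 56 was Coch, cochlin, which read 4.92, 4.13, 4.99 and 4.26 at day 14, against 8.03, 8.67, 9.05 and 10.03 at day 56 (log2 difference -4.37 ± 0.80 (SE), adjusted p = 0.021), and which also fell by 2.50 against sham, a call lost without day 14 replicate 2 (-2.36, adjusted p = 0.055), without sham replicate 2 (-2.20, adjusted p = 0.07) and without sham replicate 4 (-2.17, adjusted p = 0.072). Ecrg4, Calml4 and Asgr1 were lower than at day 56, with differences of -2.46, -2.13 and -2.20, and their differences from sham, -0.06, 0.73 and 0.15, did not pass. Sulf1, which trims heparan sulfate, Selenbp1, Cidea, a lipid droplet protein, and Moxd1 were lower than at day 56 as well, with differences of -1.93, -1.78, -1.74 and -1.73. At day 14 every value of Moxd1 and the mean of Cidea lay under the control level, so the size of both differences is uncertain. Of 16 genes named in the text that were called against day 56, 12 lost the call when only those 2 groups were fitted and 5 with at least 1 array left out. Ccnb2 kept it in 0 of 8 such fits, Mmp2 in 1, Coch and Moxd1 in 4 and Selenbp1 in 6, while Tnc and Tnfrsf12a kept it in all of these fits.

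The genes that varied most among the 4 injured rats were mostly high or low in replicate 3. Neuronal genes such as Nrsn1, Ckmt1 and Slc17a6 were far lower in replicate 3 than in the other injured rats, which also lay below every sham rat. Nrsn1, neurensin, read 8.67, 8.43, 2.34 and 8.77 in the day 14 cords, against 10.51, 10.47, 10.74 and 10.36 in the sham cords, and its fall of 3.47 was called in only 3 of the 8 fits with 1 array left out (-1.90, adjusted p = 0.24 without replicate 3). Ckmt1, mitochondrial creatine kinase, read 9.64, 9.20, 3.35 and 9.71 in the day 14 cords, against 12.04, 11.94, 12.03 and 11.90 in the sham cords, with all injured rats below all sham rats (log2 difference -4.003 ± 1.08 (SE), adjusted p = 0.0078) and a difference of -2.46 without replicate 3, a call lost when only the day 14 and sham arrays were fitted (adjusted p = 0.083). Ccl9, above, and Mmp7, matrilysin, were high in replicates 3 and 4 only: Mmp7 read 3.07, 2.95, 8.81 and 6.85 at day 14, against 2.55, 2.87, 2.54 and 2.78 in sham, and did not pass (2.73). Slfn4, an interferon-inducible gene of myeloid cells in mice, read 6.94, 4.12, 8.97 and 3.16 at day 14, against 2.14, 1.96, 1.96 and 1.94 in sham, at least 4.93-fold higher, a call lost when only the day 14 and sham arrays were fitted (adjusted p = 0.06), without day 14 replicate 1 (3.42, adjusted p = 0.059) and without day 14 replicate 3 (2.74, adjusted p = 0.095). Prss35, a serine protease, was high in some rats and low in others of both groups, 3.89, 8.62, 9.12 and 4.02 at day 14 against 8.52, 9.58, 3.69 and 9.28 in sham, and did not pass (-1.36). A further 10 genes were named for a bright probe set at day 14 and a change of at least 1. Their spread cannot be weighed against that of the genes above, which were picked for it. These 10 genes had day 14 ranges of 0.247 (Npc2) to 1.174 (Lyz2). Besides Gpnmb, Vim, Ctsb and Ctsl they were Lgals3, galectin 3, which read 14.30, 14.24, 14.51 and 14.21 in the day 14 cords, against 10.88, 12.48, 11.73 and 12.76 in the sham cords, Npc2, a lysosomal cholesterol carrier (1.19), Fabp5, a fatty acid binding protein (1.83), Rnaset2, a lysosomal ribonuclease (1.69), Lyz2, lysozyme (2.96), and Rplp0, a ribosomal protein (1.03). For Lgals3 the injured rats were within 0.30 of each other and the sham rats spanned 1.88 (log2 difference 2.35 ± 0.27 (SE), adjusted p = 2.8e-06).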

How the data were processed

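Cord RNA of 24 rats, 1 per array, had been hybridised to Affymetrix rat genome arrays. The deposited table holds log2 expression values that the authors computed with GCRMA, the submitters' processing notes naming affy 1.12.2 as well, run time point by time point by their methods. No normalization was added here. Of 31099 probe sets, 57 of them controls, 436 carried several symbols and 9831 none. The remaining 20832, 6 controls for named rat genes among them, were fitted with limma 3.58.1 (R 4.3.3) over all 24 arrays in 6 groups, with 18 residual degrees of freedom and eBayes moderation, and each of 14218 genes took its values from its brightest probe set on average, since 4526 genes had more than 1. Benjamini-Hochberg adjustment ran over all probe sets tested, with 0.05 as the threshold, and adjusted p-values in the text are from that fit. Summaries and figures used Python 3.11.15, pandas 2.3.3, numpy 2.4.6 and matplotlib 3.10.9. The steps were tested on simulated data. Precision is limited by 4 rats per group and by signal over background, not by read depth.

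Genes were named by a rule: the 15 largest rises and falls without overlap, up to 5 called members of each list and its defining members, the 8 largest differences each way from day 7 and day 56, the 10 most variable and the 10 brightest changed genes. Further list members were named after their values were seen. The lists and their members were chosen with earlier results of these data known, and 1230 of 1395 listed genes were on the array. Alternatives were the 2 groups alone, moderation with trend, no moderation, quantile normalization, median centring, removal of probe sets with a mean under 5 in both groups, averaging of probe sets per gene, the replicate number as a block, a change of at least 1, and each array left out. List counts without day 14 replicate 3 were added after seeing the data. Promoter sequences came from RefSeq (GRCr8).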

Additional observations from a re-analysis of the deposited data

Results flagged for a closer look

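Each gene of the text given with a value was read for a single rat that stood far from the other 3 of its group, its gap to the nearest of them taking up more of the whole range than the 95% critical value of Dixon’s test. Of 658 sets of 4 rats, 329 genes in both groups, 73 held such an array. No least range was asked for, so some of the far values lie at or under the control level, where there is no measurable signal. Chance flags about 1 in 20 groups where these are independent and chosen without regard to their values. The genes here were chosen partly by their change or spread and share the same arrays. The 73 can therefore not be weighed against that rate. Replicate 3 of day 14 was the far one in 16 genes on the high side and 18 on the low side. High in day 14 replicate 3 were Asgr1 at 4.76, Atf3 at 10.34, C1s at 11.94, Col1a1 at 13.77, Col6a3 at 10.10, Dgat2 at 10.53, Fxyd2 at 7.47, Loxl2 at 10.22, Moxd1 at 2.96, Nid1 at 11.80, Pdgfra at 11.84, Pdgfrb at 6.42, Pltp at 12.76, Slc6a13 at 9.62, Timp1 at 12.35 and Trem2 at 11.53 (log2 expression). Low in day 14 replicate 3 were Cacna2d3 at 4.32, Ckmt1 at 3.35, Fdft1 at 5.29, Gabrb2 at 2.61, Gad1 at 3.57, Gria1 at 4.77, Nrsn1 at 2.34, Penk at 8.44, Prph at 4.44, Scn1a at 3.10, Shank1 at 6.80, Slc12a5 at 5.40, Slc17a6 at 3.35, Slc2a3 at 5.32, Syp at 6.38, Tfrc at 9.29, Timp4 at 3.44 and Vamp1 at 8.57 (log2 expression).

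The other injured rats stood out less often. Day 14 replicate 1 was alone on the high side for Chat at 2.605 and Glra1 at 7.77. The day 14 values of Chat spanned only 0.061, all under the control level. Day 14 replicate 2 was alone on the low side for Bst2 at 8.72, Cspg5 at 6.87 and Pecam1 at 5.74. Day 14 replicate 4 was alone on the high side for Acta1 at 9.79 and Myl1 at 8.39. In sham cord every replicate stood apart for some genes. Sham replicate 1 was high for Fabp4 at 3.33, Lbr at 7.60 and Slfn4 at 2.14. Sham replicate 1 was low for C3 at 10.33, Cd59b at 13.05, Cd74 at 8.64, Col3a1 at 8.76, Cxcl16 at 3.51, Igf2 at 9.88, Itgb2 at 4.64, RT1-Bb at 5.95 and RT1-Da at 7.07. Sham replicate 2 was high for Moxd1 at 2.56. Sham replicate 2 was low for Glra1 at 6.78 and Prdm1 at 2.34. Sham replicate 3 was high for Foxj1 at 6.26, Nefh at 14.20, Scn1a at 11.58, Slc12a5 at 12.21 and Vamp1 at 14.35. Sham replicate 3 was low for Egr2 at 3.57, Folr2 at 2.16 and Sc5d at 12.86. Sham replicate 4 was high for Abcg1 at 10.85, C3ar1 at 5.30, Ifit3 at 4.90, Igtp at 6.23, Irf7 at 6.88, Mx1 at 7.57, Plbd1 at 2.38 and Stab1 at 4.29. Sham replicate 4 was low for Acta2 at 8.70.

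The change from sham at day 14 differed from that at another time in the same fit for these genes of the text, the difference being that of day 14 against the other day, at an adjusted p under 0.05 in limma over all genes. Day 14 was higher than day 7 for C1r (1.23), Calml4 (1.22), Cidea (0.56), Cp (0.82), Cxcl13 (2.10), Cyp26b1 (1.83), Ecrg4 (1.67), Foxj1 (0.62), Glra1 (1.75), Hapln1 (0.50), Ifit3 (2.23), Igf2 (2.49), Lratd1 (1.79), Oasl (2.07), Ppp1r1b (2.32) and Usp18 (1.37). Day 14 was lower than day 7 for Bnip3 (-0.41), Brcc3-ps7 (-4.84), C5ar1 (-2.05), Casr (-4.17), Cdk1 (-1.14), Cdkn3 (-2.66), Cox4i1 (-0.30), Dpysl4 (-2.36), Ebp (-0.61), Ldha (-0.99), Mcm6 (-1.36), Mki67 (-1.28), Nes (-0.90), Pnlip (-2.58), Postn (-2.03), Racgap1 (-2.23), Shcbp1 (-2.44), Sod2 (-0.37), Stab1 (-2.25), Tfrc (-1.40), Tnfrsf12a (-0.95) and Trh (-1.61). Day 14 was higher than day 56 for Ccnb2 (2.31), Cdk1 (2.39), Mmp2 (1.90), Postn (4.80), Tnc (4.31), Tnfrsf12a (2.34), Trh (2.30) and Vgf (2.19). Day 14 was lower than day 56 for Asgr1 (-2.20), Calml4 (-2.13), Cidea (-1.74), Coch (-4.37), Ecrg4 (-2.46), Moxd1 (-1.73), Selenbp1 (-1.78) and Sulf1 (-1.93). Only 4 rats stand behind each mean, and the counts against day 7 moved widely between settings, as given above.

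Probe sets without a gene symbol were left out of every comparison. Tested on their own, 426 of 9780 were higher at day 14 than in sham and 869 lower, 219 and 529 of them by at least 1.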

How the results depend on the processing

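Against sham, 1048 genes were higher and 983 lower when a change of at least 1 was also asked for. Under every other alternative both counts stayed within 1.5 times their values, between 2140 and 2469 for all but single arrays left out, where 1792 to 2211 were higher and 1831 to 2301 lower, the lowest of each without day 14 replicate 3. Quantile normalization gave 2469 higher and 2231 lower, and averaging a gene's probe sets 2245 and 2409. The count against day 7 was 268 after quantile normalization, 248 without dim probe sets, 1111 after median centring, 116 with a change of at least 1, and 2834 to 4633 with 1 array left out. The count against day 56 was 9 with those 2 groups alone, 29 without moderation, 27 with the replicate block, 31 with a change of at least 1, and 21 to 45 with 1 array left out. Of 255 genes given with a value in the text and called against sham, 29 lost the call under at least 1 alternative, and no called gene turned round. Of 46 list counts of 5 or more, 9 moved by over 1.5 times under at least 1 alternative. The cause of these shifts was not tested. With genes that had signal in 1 group only set to their bound, the largest shift of a list median was 0.59, to 1.20 for leukocyte adhesion. Averaging a gene's probe sets, in place of taking the brightest, moved some list medians in either direction. The median went from -1.395 to -0.827 for motor neurons, from 2.003 to 1.465 for the fibrotic scar and from 2.165 to 2.59 for lipid handling. In 27 genes probe sets were called in both directions.

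The labels give all groups the same replicate numbers. Deviations of day 14 and sham arrays with the same number correlated at 0.131, -0.034, -0.156 and -0.151. With day 7 arrays the values were -0.245, -0.369, -0.657 and 0.216, and with day 56 arrays 0.028, -0.036, -0.468 and -0.303. Such correlations cannot settle whether the numbers pair the rats, and the main fit used no pairing. With the replicate block 2161 genes were higher and 2245 lower than in sham and 3866 differed from day 7.

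The control level limits low values: 64 genes rose from a sham level, and 146 fell to a day 14 level, at which no array had signal, and for these a fold is only a lower bound. No fold is known for genes without signal in both groups, 4074 in all, of which 125 were nevertheless called.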
